A study of Homo sapiens with 6 samples.

Results

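The genes described here encode 10 chaperones and folding enzymes of the endoplasmic reticulum (ER): HSPA5, HSP90B1, CALR, CANX, PDIA3, PDIA4, PDIA6, DNAJB9, SDF2L1 and HYOU1. They were taken by gene name from a count matrix of 60671 named genes, and all 10 were among the 16327 genes with enough counts to be tested. The matrix came from RNA sequencing of BJ cells, fibroblasts of an established human foreskin line, with 2 libraries at each of 3 days. All libraries carry the genotype WT and the same treatment label, reprogramming. Day 0 libraries are labelled as BJ fibroblasts, and day 2 and day 5 libraries as FiN cells, an induced neuron type. Per the labels' protocols, cells grown in DMEM with 10% fetal bovine serum on poly-D-lysine were moved to a neuronal induction medium with 10 µM forskolin. On day 2 this was exchanged for a neuronal maturation medium with 10 µM forskolin, and on day 5 forskolin was withdrawn. Forskolin activates adenylyl cyclase and raises cAMP. After day 0 the drug, the medium and the elapsed time changed at once, and their parts cannot be told apart.

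The ER is where secreted and membrane proteins are folded. HSPA5 (BiP), an Hsp70 of its lumen, binds unfolded stretches with the help of J-domain partners and nucleotide exchange factors, while calnexin and calreticulin hold glycoproteins that carry a trimmed sugar, and protein disulfide isomerases form and rearrange disulfide bonds. When unfolded protein accumulates, the sensors IRE1, PERK and ATF6 start the unfolded protein response, in which ATF6 and XBP1 act on ER stress response elements in chaperone promoters. Fibroblasts use this machinery for collagen and other matrix proteins.

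The libraries held 17605858 to 27953926 expected counts, with the fewest on day 5, and the common coefficient of biological variation between libraries of a day was 3.33%. Whether the 2 libraries of a day are separate cultures is not given by the labels, so the spread behind each p-value is the one between the libraries and may be technical. The fibroblast markers (7 of 7 tested) summed to 15820 to 16121 CPM on day 0, 12970.5 to 13136 CPM on day 2 and 20152 to 20537 CPM on day 5. COL1A2 held most of the day 5 sum, with 14195 and 14456.5 CPM, against 4996 and 5110.5 CPM on day 0. In contrast to the sum, 5 of the 7 genes were lower on day 5 than on day 0 and 2 were higher (COL1A2 and PDGFRB), with a median log2 fold change of -0.70. Of 7 neuronal markers 4 were tested, and their sum was 242 and 251 CPM on day 0, 149 and 155.5 CPM on day 2, and 106 and 111 CPM on day 5, with STMN2 at 0 counts in all 6 libraries. TUBB3 made up most of this sum and fell on both later days, as did MAP2. SNAP25 was higher on day 5 than on day 0 (16.9 and 19.8 CPM, against 5.76 and 6.01 CPM, edgeR adjusted p = 6.9e-09), and SYN1 was higher on day 2 (3.17 and 2.79 CPM, against 1.66 and 1.72 CPM on day 0, edgeR adjusted p = 0.0123). Because the neuronal markers did not move one way and some were at or near 0, the groups are called by their day and not by the label of induced neurons. The summed markers of endothelium, epithelium and melanocytes lay between 0.0789 and 9.50 CPM. Of the leukocyte markers, CD3E had 0 counts, and the sum, in which CD68 was the 1 tested gene, was 93.2 and 93.9 CPM on day 0, 128.1 and 128 CPM on day 2, and 49.2 and 45.2 CPM on day 5. The part of these shifts in the results below was not tested.

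The chaperone genes held more of the library after day 0. Together they made up 0.450% and 0.442% of the counts on day 0, 0.631% and 0.625% on day 2, and 0.575% and 0.573% on day 5. Their summed level was 4078 ± 39.2 CPM on day 0, 6525 ± 40.6 CPM on day 2 and 6053 ± 25.0 CPM on day 5 (mean ± SD, n = 2 libraries per day). CPM are counts scaled to a common library size by TMM factors, which correct for differences in composition between libraries. The sums of the 3 days did not overlap. In bulk RNA, fewer cells of a type and less RNA per cell cannot be told apart. HSPA5 and HSP90B1 alone summed to 1003 ± 11.5 CPM on day 0, 2576.5 ± 21.0 CPM on day 2 and 1758 ± 9.67 CPM on day 5. The other 8 genes summed to 3075 ± 27.7 CPM, 3948.5 ± 19.6 CPM and 4296 ± 34.7 CPM on days 0, 2 and 5. Their sum was highest on day 5 and that of the pair on day 2. CALR weighed most in the sum of the 8, with means of 1269 CPM on day 2 and 1695 CPM on day 5. The means of PDIA4, SDF2L1 and HYOU1 were also higher on day 5 than on day 2. Those of CANX, PDIA3, PDIA6 and DNAJB9 were lower, so the order of the sums is not that of each gene.

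**Figure D1:**
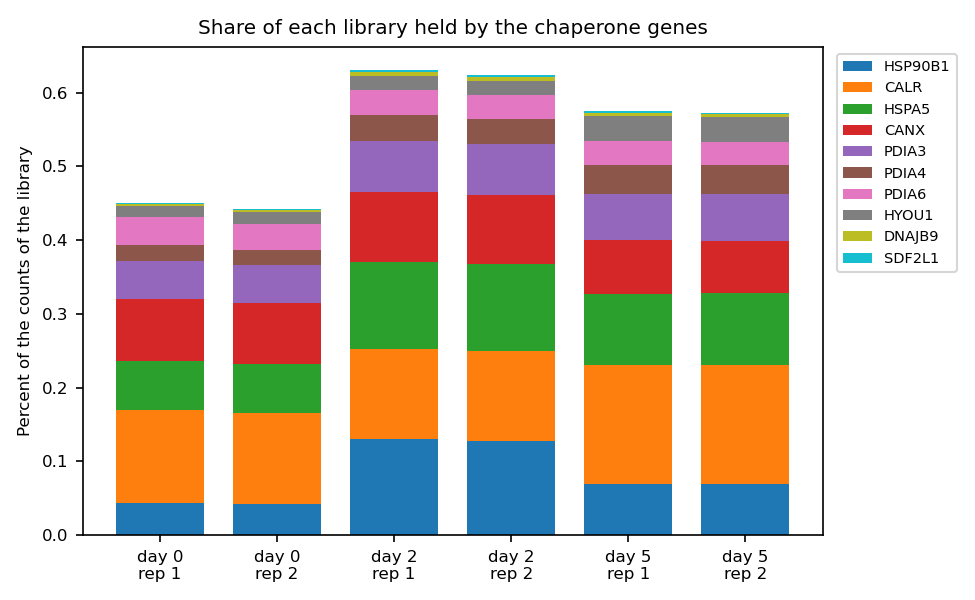
Percent of all counts of each library (vertical axis) taken by each of the 10 chaperone genes, stacked, for both libraries of days 0, 2 and 5. The stacks reach 0.450% and 0.442% on day 0, 0.631% and 0.625% on day 2, and 0.575% and 0.573% on day 5, and the HSP90B1 layer is thickest on day 2.

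On day 2 against day 0, 9 of the 10 genes, all but PDIA6, were called higher and 0 lower (the direction of CALR turned under library totals), beside 66.8% of all tested genes that changed, 33.4% up and 33.4% down (edgeR quasi-likelihood test, Benjamini-Hochberg adjusted p under 0.05 over 16327 genes). With library totals in place of TMM factors, 8 were called higher and PDIA6 lower, and CALR was not called. With TMM factors their median log2 fold change was 0.64, beside 0.00 over all tested genes. HSP90B1 and DNAJB9 rose by more than 2-fold in a test against that limit (glmTreat), as 6.99% of all tested genes did, with 5.54% lower by more than 2-fold. On day 5 against day 0, 8 rose and 0 fell (69.9% of all tested genes changed, 35.8% up and 34.1% down), with a median of 0.79 beside 0.05 over all genes (8 rose, and CANX and PDIA6 fell, with library totals). PDIA4 and HYOU1 then exceeded 2-fold, as did 9.74% of all genes, with 10.3% lower by more than 2-fold. On day 5 against day 2, 3 rose (CALR, PDIA4 and HYOU1) and 5 fell (HSPA5, HSP90B1, CANX, PDIA3 and DNAJB9), where 65.8% of all genes changed, 32.1% up and 33.7% down, and the median was -0.08. None of the 10 exceeded 2-fold in that comparison by glmTreat, beside 6.41% of all genes higher and 7.96% lower. The comparisons share libraries, so their values are not independent of each other.

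Both later libraries lay above both day 0 libraries for 9 genes on day 2 and for 8 on day 5, and none had both below. Of all tested genes, 41.3% lay above and 41.4% below on day 2, and 43.8% above and 40.7% below on day 5. On day 5 against day 2, 3 genes lay above without overlap (41.0% of all tested genes) and 5 below (41.4%). Of the 8 genes called higher than day 0 at both later days, 4 were lower on day 5 than on day 2 and SDF2L1 overlapped between these days. The other 3 were higher on day 5 than on day 2, among them CALR, whose day 2 call against day 0 depends on the scaling.

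**Figure D2:**
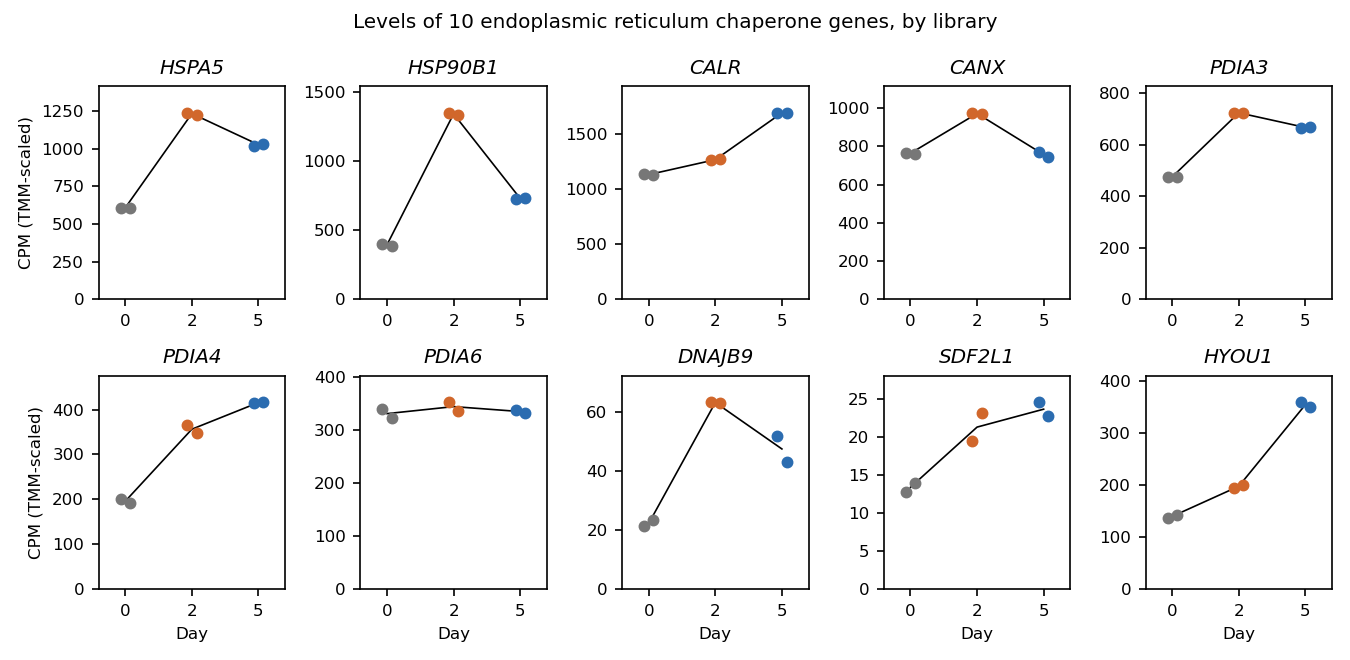
TMM-scaled CPM (vertical axis, from 0, a separate scale per gene) of the 10 genes on days 0, 2 and 5. Each point is a library and the line joins the means of the 2 libraries. HSP90B1 peaks on day 2 with 1350.3 and 1333 CPM, HYOU1 is highest on day 5 with 359 and 350.3 CPM, and PDIA6 stays between 322 and 352 CPM.

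The promoters of these genes are shown because the ER stress response element (ERSE), a site bound by NF-Y together with ATF6 or XBP1, is known from several of them. Windows of 300 bases, 250 before to 50 after the transcript start, were read from RefSeq on GRCh38.p14, and 9 of the 10 genes had an entry (not PDIA3). An ERSE was searched as CCAAT, 9 bases of any kind and CCACG, and an ERSE-II as ATTGG, 1 base of any kind and CCACG, on both strands. Capitals below mark the fixed letters of either motif, read as CGTGG and ATTGG (ERSE) or CGTGG and CCAAT (ERSE-II) where the match is on the other strand. The windows of HSPA5, HSP90B1 and HYOU1 hold matches and belong to genes called higher on both later days. The printed window of PDIA6 holds a match and belongs to a gene that was not called, and the window of the other PDIA6 entry holds no match. The DNAJB9 window holds none and belongs to a gene whose day 2 change was exceeded among the 10 only by that of HSP90B1. Each is printed 5′ to 3′ along the gene, at chr9:125241294-125241593 (minus strand) for HSPA5, chr12:103930160-103930459 (plus) for HSP90B1, chr11:119057156-119057455 (minus) for HYOU1, chr2:10812736-10813035 (minus) for PDIA6 and chr7:108569624-108569923 (plus) for DNAJB9.
HSPA5: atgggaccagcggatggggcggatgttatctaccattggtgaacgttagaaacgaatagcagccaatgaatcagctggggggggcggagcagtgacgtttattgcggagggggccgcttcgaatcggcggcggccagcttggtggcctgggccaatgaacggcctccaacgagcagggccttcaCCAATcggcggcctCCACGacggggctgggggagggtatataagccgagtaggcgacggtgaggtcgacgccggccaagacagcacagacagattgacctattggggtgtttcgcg
HSP90B1: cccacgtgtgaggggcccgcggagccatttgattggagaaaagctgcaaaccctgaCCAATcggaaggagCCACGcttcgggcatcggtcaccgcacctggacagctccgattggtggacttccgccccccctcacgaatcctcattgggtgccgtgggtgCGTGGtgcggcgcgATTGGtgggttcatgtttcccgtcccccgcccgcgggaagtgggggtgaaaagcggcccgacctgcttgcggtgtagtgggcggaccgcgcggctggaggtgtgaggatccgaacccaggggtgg
HYOU1: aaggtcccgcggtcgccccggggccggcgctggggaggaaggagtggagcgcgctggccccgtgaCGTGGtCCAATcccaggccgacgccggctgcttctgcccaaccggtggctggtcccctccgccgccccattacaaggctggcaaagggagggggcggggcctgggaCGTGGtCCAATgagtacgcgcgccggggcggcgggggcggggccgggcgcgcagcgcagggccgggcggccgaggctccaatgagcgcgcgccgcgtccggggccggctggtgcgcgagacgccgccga
PDIA6: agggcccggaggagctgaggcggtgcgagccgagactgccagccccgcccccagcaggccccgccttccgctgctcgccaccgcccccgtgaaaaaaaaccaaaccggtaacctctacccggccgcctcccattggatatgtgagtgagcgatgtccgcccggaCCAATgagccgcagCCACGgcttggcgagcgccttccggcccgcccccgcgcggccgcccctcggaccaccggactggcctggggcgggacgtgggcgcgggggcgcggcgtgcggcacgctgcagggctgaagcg
DNAJB9: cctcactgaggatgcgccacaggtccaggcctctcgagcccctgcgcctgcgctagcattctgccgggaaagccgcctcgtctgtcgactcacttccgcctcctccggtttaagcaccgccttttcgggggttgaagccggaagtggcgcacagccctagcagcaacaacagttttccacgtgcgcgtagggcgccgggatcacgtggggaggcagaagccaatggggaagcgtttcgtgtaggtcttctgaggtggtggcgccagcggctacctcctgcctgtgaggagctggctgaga

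Among 35116 promoter windows of 27305 genes, 27 windows held an ERSE match, in 0.0916% of the genes, and 5 of the 9 chaperone genes with an entry were among them. An ERSE-II match was found in 19 windows, in 0.0696% of the genes, among them SDF2L1 and HYOU1. The ERSE matches are set out below, each in the direction that reads CCAAT first, to show that the 9 bases between the fixed letters differ from gene to gene. With base +1 the first of the transcript and base -1 the one before it, they lie at -66 to -48 in HSPA5, at -194 to -176 and, on the other strand, at -89 to -71 in HSP90B1, at -225 to -207 on the other strand in CALR, and at -86 to -68 in PDIA6. CANX has 4 entries in the table, and 3 overlapping windows hold the same site.
HSPA5: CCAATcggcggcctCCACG
HSP90B1, first site: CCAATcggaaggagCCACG
HSP90B1, second site: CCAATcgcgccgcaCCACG
CALR: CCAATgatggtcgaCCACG
CANX: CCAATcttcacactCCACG
PDIA6: CCAATgagccgcagCCACG

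The ERSE-II matches lie on the other strand, at -188 to -178 in SDF2L1 (capitals mark the fixed letters) and at -185 to -175 and -79 to -69 in HYOU1, which holds the same letters at both sites.
SDF2L1: ATTGGtCCACG
HYOU1: ATTGGaCCACG

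The core of the unfolded protein response element, searched as TGACGTGG, was present in 0.927% of genes and in HYOU1 only among the 9, at -188 to -181, where it overlaps the first ERSE-II match. The cAMP response element TGACGTCA was present in 2.25% of genes and in 0 of the 9. The short words CCAAT and CCACG, which also occur inside the ERSE, were each present in 9 of the 9, beside 39.7% and 42.1% of all genes. PDIA4 and DNAJB9 held neither an ERSE nor an ERSE-II, which says only that these letters are not in these windows. The 7 genes with a match had log2 fold changes of 0.06 to 1.77 on day 2 against day 0 (median 0.50), and PDIA4 and DNAJB9 had 0.86 and 1.50. Outside the 10 genes, 37 genes had a match, of which 22 were tested. On day 2 against day 0, 8 of these rose and 8 fell with a median of 0.04. Of all tested genes, 33.4% rose and 33.4% fell. The day 2 log2 fold changes of the 22 ran from -2.46 (NAV2, with an ERSE-II) to 1.40 (EIF2A, with an ERSE). Both were named after their values were seen as the lowest and the highest. Among those that rose were XBP1 (0.68, with an ERSE) and HERPUD1 (0.86, with an ERSE-II), which are described further below. On day 5 against day 0, 11 of the 22 rose and 8 fell with a median of 0.18, beside 35.8% up and 34.1% down over all tested genes.

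**Figure D3:**
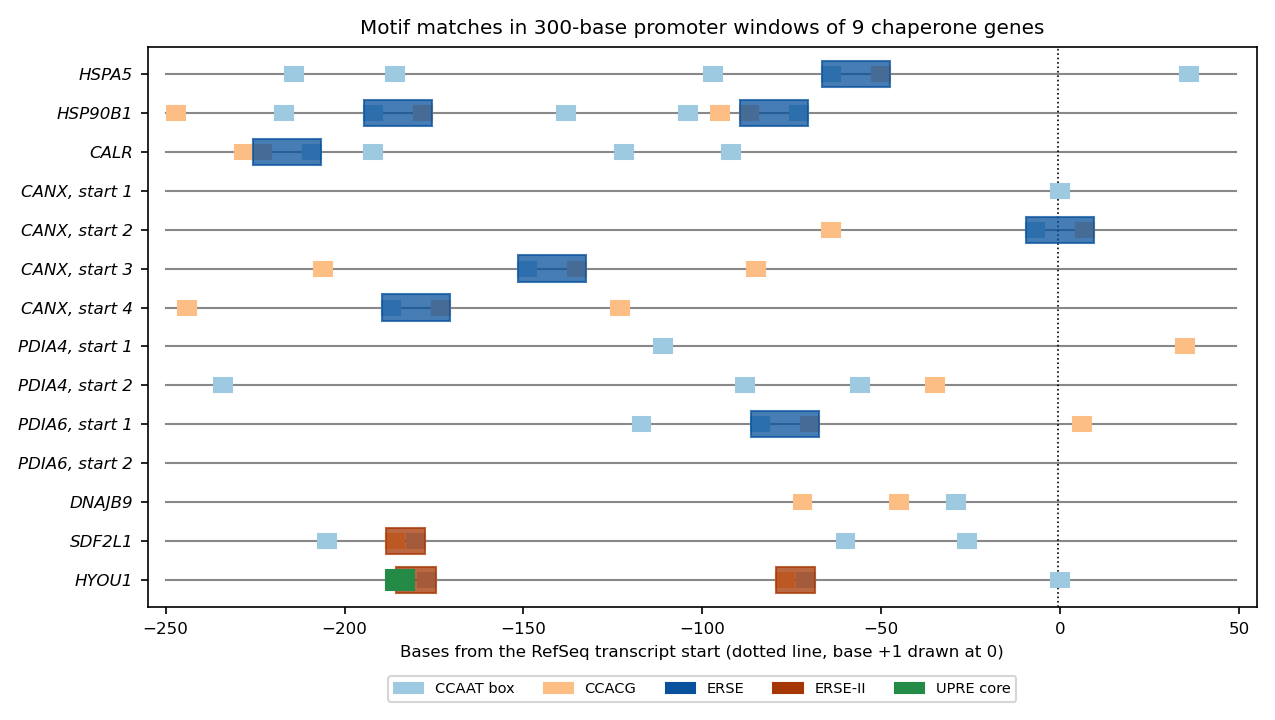
Position of motif matches in the promoter windows of 9 chaperone genes, in bases from the RefSeq transcript start (horizontal axis; genes with several entries have a line each). Dark blue boxes are ERSE, brown boxes ERSE-II, the green box the core of the unfolded protein response element, and pale boxes the short words CCAAT and CCACG. HSP90B1 holds 2 ERSE matches and HYOU1 2 ERSE-II matches, and the lines of PDIA4 and DNAJB9 hold neither.

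The Hsp70 machinery of the lumen comprised HSPA5, its co-chaperone DNAJB9, SDF2L1 and the nucleotide exchange factor HYOU1. HSPA5 (ENSG00000044574, chromosome 9, 125234853 to 125241330 of GRCh38) had 609 and 608 CPM on day 0, 1241 and 1229 CPM on day 2, and 1022 and 1034 CPM on day 5. Both day 2 libraries were highest, day 5 was intermediate, and no days overlapped. HSPA5 was 2.03-fold higher on day 2 than on day 0 (a log2 change of 1.02 ± 0.02 SE, edgeR adjusted p = 1e-17), which did not pass the test for a change above 2-fold (glmTreat adjusted p = 0.27). On day 5 it was 1.69-fold higher than on day 0 (0.76 ± 0.02 log2, edgeR adjusted p = 3.7e-16) and had fallen by 0.26 ± 0.02 log2 against day 2 (edgeR adjusted p = 9.6e-10). The HSPA5 window holds 1 ERSE match.

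HYOU1 (ENSG00000149428, chromosome 11, 119044189 to 119057202) encodes a large Hsp70 relative that releases nucleotide from HSPA5. Its level was 137.5 and 142 CPM on day 0, 195 and 200.2 CPM on day 2, and 359 and 350.3 CPM on day 5. It stood highest on day 5 in both libraries, and no days overlapped. HYOU1 rose 2.53-fold on day 5 against day 0 (a log2 change of 1.34 ± 0.03, edgeR adjusted p = 1.4e-16), the largest change of the 10 genes in that comparison. It rose by 0.50 ± 0.03 log2 on day 2 against day 0 (edgeR adjusted p = 2.6e-10) and by 0.84 ± 0.03 log2 on day 5 against day 2 (edgeR adjusted p = 1e-13). An antisense gene, AP003392.3, shares 666 exon bases with HYOU1 and had 0 to 19.98 counts per library.

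DNAJB9 (ENSG00000128590, chromosome 7, 108569568 to 108574850) encodes ERdj4, a J-domain partner of HSPA5 that also restrains the sensor IRE1. It had 21.3 and 23.3 CPM on day 0, 63.3 CPM in both libraries of day 2, and 51.9 and 43.1 CPM on day 5. Day 2 was highest, day 5 intermediate with a wider spread, and the days did not overlap. DNAJB9 rose 2.83-fold on day 2 (a log2 change of 1.50 ± 0.08, edgeR adjusted p = 1.2e-11) and 2.12-fold on day 5 (1.09 ± 0.08, edgeR adjusted p = 2.4e-09) against day 0, and was lower on day 5 than on day 2 by 0.42 (a log2 change of -0.42 ± 0.07, edgeR adjusted p = 7.9e-05). Overlap with other genes limits this gene, because 99 of its exon bases are shared with PNPLA8 and 183 with THAP5 on the opposite strand and the strand setting was not given. PNPLA8 had 437 and 473 counts on day 0, 1328 and 1461 on day 2, and 496 and 492 on day 5, and its part in the DNAJB9 values was not tested.

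SDF2L1 (ENSG00000128228, chromosome 22, 21642261 to 21644298), an ER resident protein that works with HSPA5 and its J-domain partners, had 12.8 and 13.95 CPM on day 0, 19.5 and 23.1 CPM on day 2, and 24.5 and 22.8 CPM on day 5. Both later days lay above day 0 and overlapped with each other. The log2 fold change was 0.67 ± 0.10 on day 2 (edgeR adjusted p = 1.7e-05) and 0.82 ± 0.10 on day 5 (edgeR adjusted p = 2.2e-06) against day 0, and 0.15 ± 0.10 on day 5 against day 2 (edgeR adjusted p = 0.206).

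HSP90B1 (ENSG00000166598, chromosome 12, 103930107 to 103953645) encodes GRP94, the Hsp90 of the ER, which folds integrins and Toll-like receptors. It had 402 and 387 CPM on day 0, 1350.3 and 1333 CPM on day 2, and 728.5 and 730.5 CPM on day 5. Day 2 stood far above the other days, day 5 lay between, and no days overlapped. HSP90B1 rose 3.4-fold on day 2 (a log2 change of 1.77 ± 0.02, edgeR adjusted p = 6.1e-20), the largest change of the 10 genes in any comparison, and exceeded the log2 fold change of 94.8% of all tested genes. On day 5 it was 1.85-fold higher than on day 0 (0.89 ± 0.02, edgeR adjusted p = 4.5e-16) and had fallen by 0.88 ± 0.02 log2 against day 2 (edgeR adjusted p = 4.7e-16). Its promoter is the one of the 9 with 2 ERSE matches.

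The glycoprotein cycle comprised calreticulin, calnexin and the oxidoreductase PDIA3 (ERp57), which both lectins bring to their substrates. CALR (ENSG00000179218, chromosome 19, 12938578 to 12944489), the soluble lectin and a calcium store of the lumen, had 1141 and 1126 CPM on day 0, 1266 and 1272 CPM on day 2, and 1697 and 1694 CPM on day 5. Both day 5 libraries were highest and no days overlapped. CALR rose by 0.58 ± 0.02 log2 on day 5 against day 0 (edgeR adjusted p = 3.4e-15) and by 0.42 ± 0.02 against day 2 (edgeR adjusted p = 4.8e-13). Its difference on day 2 against day 0 was small (a log2 change of 0.16 ± 0.02, edgeR adjusted p = 1.6e-07). It turned to -0.021 when library totals replaced TMM factors (edgeR adjusted p = 0.291), so the direction of CALR on day 2 depends on the scaling. The adjusted p ranged from 5.6e-15 to 1 over all settings tried, among them glmTreat, which asks for more than 2-fold.

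CANX (ENSG00000127022, chromosome 5, 179678628 to 179730925), the membrane-bound lectin, had 766 and 761 CPM on day 0, 976.5 and 968 CPM on day 2, and 769 and 745 CPM on day 5. It was high on day 2, and the day 5 libraries overlapped with those of day 0. CANX rose by 0.35 ± 0.02 log2 on day 2 against day 0 (edgeR adjusted p = 8.7e-11), and its log2 fold change on day 5 against day 0 was -0.013 ± 0.02 (edgeR adjusted p = 0.591). Against day 2 it fell by 0.36 ± 0.02 log2 on day 5 (edgeR adjusted p = 6.4e-11). PDIA3 (ENSG00000167004, chromosome 15, 43746392 to 43773279) had 476 and 475 CPM on day 0, 725 and 724 CPM on day 2, and 666 and 668 CPM on day 5. Its days did not overlap, with day 2 highest. PDIA3 rose by 0.61 ± 0.02 log2 on day 2 and by 0.49 ± 0.02 on day 5 against day 0 (edgeR adjusted p = 4.1e-14 and 6.8e-13), and fell by 0.12 ± 0.02 on day 5 against day 2 (edgeR adjusted p = 6.6e-05). A processed copy, PDIA3P1, was counted separately with 25.4 to 89.9 counts per library, and how reads shared with PDIA3 were split is uncertain. Among these 3 genes CALR was highest on day 5, and CANX and PDIA3 were highest on day 2.

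The other disulfide isomerases were PDIA4 (ERp72) and PDIA6 (P5), thioredoxin-fold enzymes found with HSPA5 in chaperone complexes. PDIA4 (ENSG00000155660, chromosome 7, 149003062 to 149028641) had 199.7 and 192 CPM on day 0, 365 and 348 CPM on day 2, and 416 CPM in both libraries of day 5. No days overlapped, and day 5 was highest. PDIA4 rose by 0.86 ± 0.03 log2 on day 2 (edgeR adjusted p = 7.1e-14) and by 1.09 ± 0.03 on day 5 (edgeR adjusted p = 2e-15) against day 0, and by 0.22 ± 0.03 on day 5 against day 2 (edgeR adjusted p = 3.3e-06). PDIA6 (ENSG00000143870, chromosome 2, 10783391 to 10837977) had 339.7 and 322 CPM on day 0, 352 and 336 CPM on day 2, and 337 and 332 CPM on day 5. All 3 days overlapped. Its log2 fold changes were 0.06 ± 0.03 on day 2 and 0.02 ± 0.03 on day 5 against day 0, and -0.04 ± 0.03 on day 5 against day 2 (edgeR adjusted p = 0.106, 0.632 and 0.272). PDIA6 was called higher on day 2 without day 0 replicate 1 (a log2 change of 0.09) or without day 2 replicate 2 (0.09), and lower under library totals. Its adjusted p on day 2 ranged from 0.0015 to 1 over all settings tried. The lowest value was for the fall under library totals, and the range includes glmTreat, which asks for more than 2-fold.

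**Figure D4:**
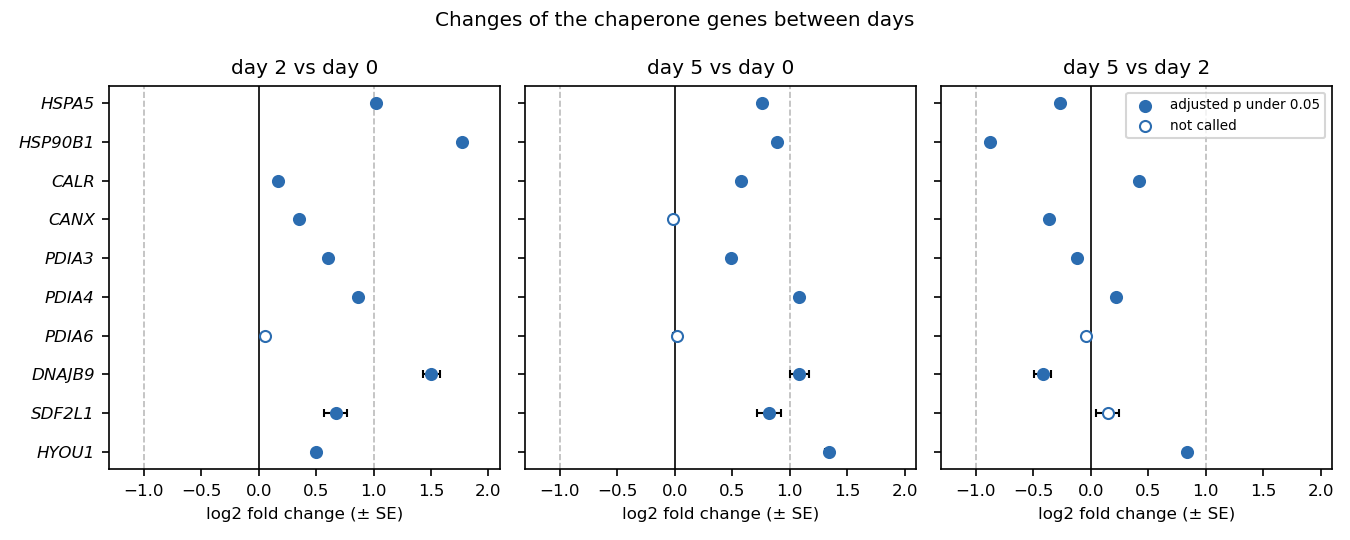
Log2 fold change ± SE of the 10 genes (horizontal axis) on day 2 against day 0, day 5 against day 0 and day 5 against day 2. Filled points have an edgeR adjusted p under 0.05, and dashed lines mark a 2-fold change. HSP90B1 reaches 1.77 on day 2, HYOU1 1.34 on day 5, and HSPA5, HSP90B1, CANX, PDIA3 and DNAJB9 lie below 0 in the last panel.

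Levels of different genes were compared as CPM per kilobase, using the gene lengths of the deposited table. On this scale CALR was highest on each day, at 596, 668 and 892 CPM per kilobase on days 0, 2 and 5. On day 0 a group of 5 followed closely, from 155 for CANX and for HSPA5 to 129 for PDIA3, with HSP90B1 at 142 and PDIA6 at 141. On day 2 HSP90B1 followed with 482 and HSPA5 with 315, and on day 5 both stood at 262 CPM per kilobase. DNAJB9 and SDF2L1 were lowest on each day, at 9.26 and 16.2, 26.3 and 25.8, and 19.7 and 28.7 CPM per kilobase on days 0, 2 and 5. The order depends on the lengths used: with merged exons of GENCODE release 29, HSP90B1 had 286 CPM per kilobase on day 2, below HSPA5. The close group of day 0 and the tie of day 5 depend on them too. With the GENCODE lengths, day 0 gave 155.7 for HSPA5, 122.5 for CANX, 112.1 for PDIA3, 84 for HSP90B1 and 80.7 for PDIA6. On day 5 HSP90B1 had 155.4 and HSPA5 263.1 CPM per kilobase.

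The median pattern of the 10 genes over the 6 libraries, each centred on the log2 scale, was nearest to that of TMEM258, a subunit of the oligosaccharyltransferase (distance 0.107), among all other tested genes. RPS23 (0.113), TGFBR1 (0.122) and CRIPT (0.126) were also among the nearest. The 10 genes themselves lay farther from their median pattern, from 0.283 for PDIA3 to 1.072 for HSP90B1. The nearest genes are thus near to the median and not to each of the 10. The measure was the Euclidean distance between log2 CPM values, with 6 points that share libraries. TMEM258 averaged 29.8 CPM on day 0, 51.8 CPM on day 2 and 48.5 CPM on day 5. RPS23 encodes a ribosomal protein, and ribosomal protein genes have many pseudogenes, so its counts are uncertain.

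The wider chaperone and secretory machinery was described by lists chosen by function. The counts of every list stand beside those of all tested genes. Of these, 33.4% rose and 33.4% fell on day 2 against day 0 (median log2 fold change 0.00). On day 5 against day 0, 35.8% rose and 34.1% fell (median 0.05), and on day 5 against day 2, 32.1% rose and 33.7% fell. Of 20 other ER foldases and co-chaperones, 17 rose and 0 fell on day 2 against day 0, and 18 rose and 1 fell on day 5 (median log2 fold change 0.52 and 0.56). With library totals 15 rose and 3 fell, and 12 rose and 1 fell. ERO1A, the oxidase that recharges disulfide isomerases, had 90.3 and 90.1 CPM on day 2 against 32.0 and 31.0 CPM on day 0 (a log2 change of 1.52 ± 0.05). MANF, a small ER protein that binds HSPA5, rose by 1.17 ± 0.05 log2 on day 2 and by 0.98 ± 0.05 on day 5, and ERP29, an ER protein with a thioredoxin-like fold, by 0.55 ± 0.04 and 1.35 ± 0.04. P4HB, the founding protein disulfide isomerase and a subunit of the collagen prolyl hydroxylase, was the gene that fell on day 5, with 1426.5 and 1447 CPM on day 0, 2040.4 and 2080.0 CPM on day 2, and 1123 and 1139 CPM on day 5. On day 5 against day 2, 8 of the list rose and 9 fell, P4HB by 0.87 ± 0.02 log2 and the transmembrane thioredoxin TMX3 by 0.82 ± 0.06.

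The 6 collagen chaperone and prolyl isomerase genes rose on day 5 in 6 of 6 cases (5 rose and 1 fell on day 2; with library totals, 5 rose and 1 fell on day 5 and 4 rose and 1 fell on day 2). The cyclophilin PPIB had 805.5 and 806 CPM on day 5 against 297 and 301 CPM on day 0, and FKBP7, an FK506-binding isomerase, rose by 2.08 ± 0.06 log2. SERPINH1 (HSP47), the collagen chaperone, fell by 0.30 ± 0.02 log2 on day 2 and rose by 0.47 ± 0.02 on day 5 against day 0.

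Of 18 genes for sensors and transcription factors of the unfolded protein response, 10 rose and 5 fell on day 2, and 11 rose and 4 fell on day 5, with medians of 0.26 at both. With library totals the split was 7 and 7 on day 2, and 8 and 7 on day 5. XBP1, the factor that IRE1 splices, had 63.2 and 61.2 CPM on day 0, 102.5 and 97.0 CPM on day 2, and 162 and 158 CPM on day 5, and rose on both later days (0.68 ± 0.04 and 1.36 ± 0.04 log2). ERN1, which encodes IRE1, rose by 1.11 ± 0.09 log2 on day 2 and 1.27 ± 0.09 on day 5, and EIF2AK3, which encodes PERK, by 0.32 ± 0.10 and 1.06 ± 0.10. EIF2AK3 was no longer called on day 2 when library totals were used (edgeR adjusted p = 0.215) or when day 2 replicate 1 was left out. Its adjusted p spanned 0.0055 to 1 over all settings, among them glmTreat, which asks for more than 2-fold. ATF6 was not called, with 0.03 ± 0.05 on day 2 (edgeR adjusted p = 0.602) and -0.07 ± 0.06 on day 5 (edgeR adjusted p = 0.267). ATF4, the factor translated when PERK is active, rose by 0.71 ± 0.03 and 0.86 ± 0.03 log2, while its target PPP1R15A, a phosphatase subunit that restores translation, fell by 0.74 ± 0.04 and 1.66 ± 0.05. DDIT3 (CHOP), a proapoptotic target of the same branch, had 11.6 and 10.3 CPM on day 2 against 15.9 and 17.2 CPM on day 0, a fall. DDIT3 was not called on day 5 against day 0 (a log2 change of -0.18 ± 0.11, edgeR adjusted p = 0.14). It was called higher on day 5 than on day 2 (a log2 change of 0.426 ± 0.111, edgeR adjusted p = 0.00283). TRIB3, of the same list, rose by 0.335 ± 0.103 log2 on day 2 and by 0.959 ± 0.103 on day 5 against day 0 (edgeR adjusted p = 0.00879 and 2.5e-07). CREB3L1, a membrane-bound transcription factor of collagen-producing cells, fell by 1.23 ± 0.05 and 1.85 ± 0.05 log2, and its relative CREB3L2 rose by 0.93 ± 0.04 and 1.15 ± 0.04. Counts per gene do not show whether XBP1 was spliced or ATF6 cleaved.

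Among 9 genes of glycan trimming and quality control, 7 rose and 1 fell on day 2, and 5 rose and 3 fell on day 5 (4 and 4, and 5 and 4, with library totals). LMAN1, a lectin that carries glycoproteins out of the ER, had 316 and 312 CPM on day 2 against 71.3 and 74.6 CPM on day 0, and UGGT2, which recognises misfolded glycoproteins, rose by 1.33 ± 0.07 log2. Of 17 tested genes of ER-associated degradation, 9 rose and 6 fell on day 2, and 7 rose and 5 fell on day 5 (7 and 8, and 5 and 10, with library totals). Median log2 fold changes on days 2 and 5 were 0.26 and 0.02 for degradation, and 0.22 and 0.37 for the glycan list. EDEM3, a mannosidase that marks glycoproteins for disposal, rose by 1.89 ± 0.06 log2 on day 2, and HERPUD1, a membrane protein of the disposal complex, by 0.86 ± 0.06. The ubiquitin ligase SYVN1 rose by 0.94 ± 0.05 log2 on day 5, and its partner SEL1L rose by 0.85 ± 0.04 on day 2 and was not called on day 5 against day 0 (0.05 ± 0.04, edgeR adjusted p = 0.352).

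Of 16 genes of the translocon and signal peptidase, 7 rose and 4 fell on day 2, and 7 rose and 5 fell on day 5, with medians of 0.09 and -0.04 (6 and 7, and 5 and 9, with library totals). The signal peptidase subunit SPCS3 rose by 2.35 ± 0.03 log2 on day 2 (448.5 and 459 CPM, against 89.4 and 88.9 CPM on day 0), while the subunit SEC11C fell by 1.26 ± 0.14. Of 11 oligosaccharyltransferase genes 7 rose and 2 fell on day 2, and 4 rose and 5 fell on day 5 (5 and 4, and 2 and 7, with library totals). STT3B, a catalytic subunit, rose by 1.12 ± 0.04 and 1.20 ± 0.04 log2. Of 10 COPII coat genes, which bud vesicles from the ER, 6 rose and 2 fell on day 2, and 4 rose and 2 fell on day 5 (6 and 4, and 3 and 5, with library totals), and SEC24A rose by 1.34 ± 0.06 log2 on day 2. Of 10 genes of ER calcium handling, 7 rose and 1 fell on day 2, and 3 rose and 7 fell on day 5. Median log2 fold changes on days 2 and 5 were 0.265 and -0.043 for oligosaccharyltransferase, 0.447 and 0.080 for the COPII coat, and 0.387 and -0.260 for calcium handling. The calcium pump ATP2A2 had 812 and 811.5 CPM on day 2 against 397 and 406 CPM on day 0, and the calcium channel ITPR3 had 6.60 and 5.84 CPM on day 5 against 49.4 and 52.8 CPM on day 0.

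Chaperones outside the ER gave other counts. Of 20 cytosolic chaperone genes, 3 rose and 15 fell on day 2 against day 0, and 1 rose and 18 fell on day 5, with median log2 fold changes of -0.38 and -0.77. HSPA8, the constitutive cytosolic Hsp70, had 1824 and 1847 CPM on day 0, 881 and 893 CPM on day 2, and 782 and 797 CPM on day 5. The small heat shock protein HSPB1 had 48.6 and 48.4 CPM on day 5 against 531 and 557 CPM on day 0 (a log2 change of -3.49 ± 0.04). HSP90AA1, the inducible cytosolic Hsp90, was not called on day 2 (-0.05 ± 0.02, edgeR adjusted p = 0.0552) and fell by 1.34 ± 0.03 log2 on day 5, and the J-domain protein DNAJB1 fell by 1.18 ± 0.04 and 1.21 ± 0.04. Of 8 mitochondrial chaperone genes, 2 rose and 4 fell on day 2, and 1 rose and 3 fell on day 5 (1 and 6, and 0 and 6, with library totals). Under library totals the cytosolic counts were 1 higher and 17 lower on day 2, and 0 higher and 19 lower on day 5. The difference between the ER and the cytosolic genes was not itself tested.

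**Figure D5:**
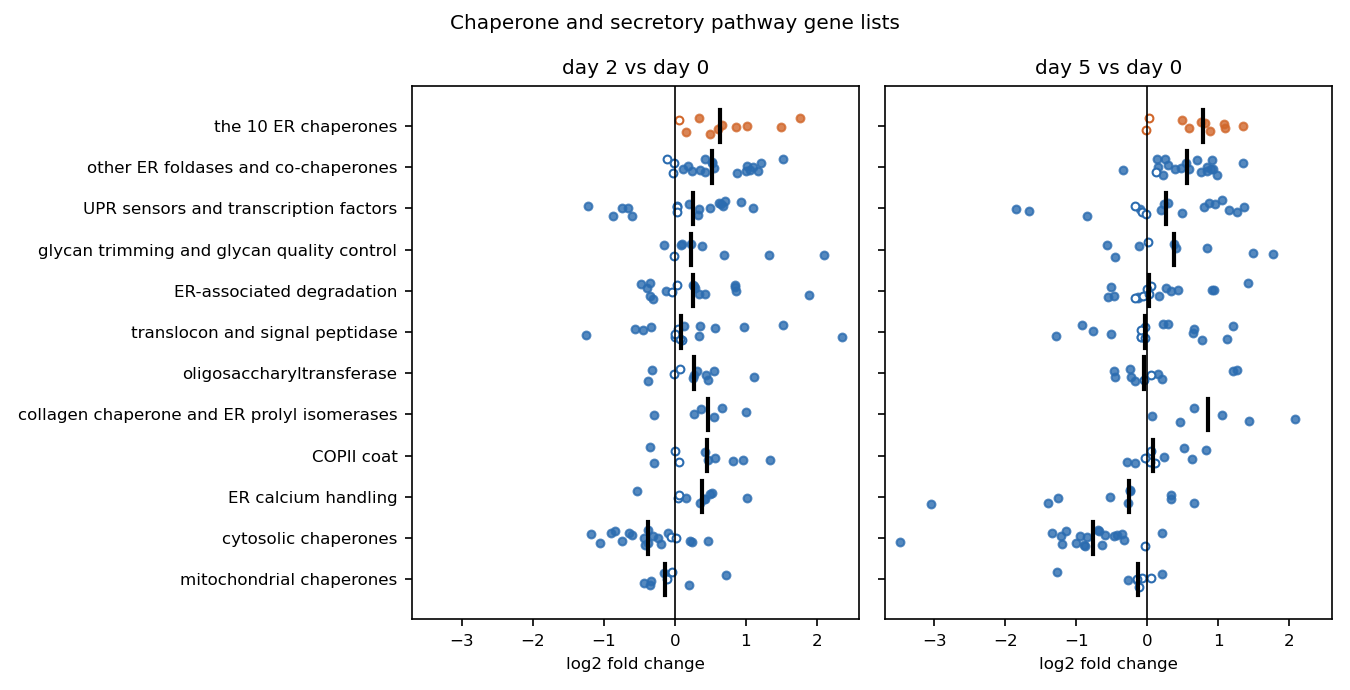
Log2 fold change (horizontal axis) of each tested gene of the 12 lists on day 2 and on day 5 against day 0. Filled points have an edgeR adjusted p under 0.05, open points do not, and bars mark the medians, which are 0.64 and 0.79 for the 10 ER chaperones and -0.38 and -0.77 for the cytosolic chaperones.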

How the data were processed

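Per the labels' protocols, the 6 libraries were prepared with a TruSeq kit from TRIzol-extracted, DNase-treated total RNA. The authors deposited expected counts per gene, which need not be whole (87.2% were), with a gene length in bases, per the file headers. Per the submitters' processing notes, reads were placed on GRCh38. For the aligner, counter, annotation release, strand setting and meaning of the length, the entry is "not given in the sources used here". Of all rows, the 172 rows without a gene name (0.0356 to 0.0475% of counts) were left out.

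Counts were rounded and fitted for all 6 libraries by day with edgeR 4.0.16 under R 4.3.3. TMM factors and filterByExpr (minimum count 10, minimum total 15) were used, and quasi-likelihood tests had 3 residual degrees of freedom. P-values are two-sided, and calls were made at an adjusted p under 0.05. The SE is the log2 fold change divided by the square root of F. Gene coordinates came from GENCODE release 29 on GRCh38 and promoters from RefSeq on GRCh38.p14. Of these steps, only the edgeR fit was tested on simulated data, for day 2 against day 0. Besides the 10 genes, the text names up to 3 called genes per list and comparison with the largest change and a mean of at least 5 CPM, and 8 genes of the response in any case. The 5 genes nearest in pattern were also taken, and not every result of these rules is reported here. TRIB3 was named outside these rules after its values were seen, and its values under other settings are not reported here. The 10 genes and all lists were chosen with earlier results of these data known. Replicate numbers were shared by the days, and whether they pair the libraries is not given by the labels. The main fit did not pair them. Other settings tried were RLE factors, library totals, IGFBP5 left out, 2 other count filters, DESeq2 1.42.0, limma-voom (limma 3.58.1), only 2 days in the fit, the replicate block, glmTreat and each library left out.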

Additional observations from a re-analysis of the deposited data

How the results depend on the processing

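Library totals in place of TMM factors shifted log2 fold changes against day 0 by a median of -0.18 on day 2 and -0.21 on day 5. All tested genes then split into 4249 higher and 6902 lower on day 2, and 4415 and 6899 on day 5, beside 5457 and 5455, and 5839 and 5566, with TMM. Under library totals 1 of the 10 chaperone genes was called lower on day 2 (PDIA6) and 2 on day 5 (CANX and PDIA6) against day 0, and CALR on day 2 had -0.021. Without a count filter 1 was lower on day 5 against day 0 (CANX). By its construction glmTreat, which asks for more than 2-fold, left 2 higher on day 2 and 2 higher on day 5 against day 0, and 0 higher and 0 lower on day 5 against day 2. Among other named genes, library totals turned RCN3 on day 2 to -0.023, and NFYC and OSTC on day 5 against day 0 to -0.019 and -0.052. With the replicate block 10 genes were higher on day 2 against day 0, where PDIA6 gained a call (edgeR adjusted p = 0.0477), and it changed no other call of the 10. Same-numbered deviations of the libraries correlated at 0.003, -0.002 and -0.005 over genes. Counting noise enters these deviations, so the values cannot decide whether replicate numbers pair the libraries. Of all values of the 10 genes under other settings, 450 stayed on their side of the threshold. Those called among them kept their direction, while uncalled values could change sign. Another 8 gained a call, among them PDIA6 under library totals, where its sign on days 2 and 5 against day 0 turned. Under glmTreat 21 lost a call, and 1 called value reversed, that of CALR on day 2 under library totals. Leaving out a library kept each called direction of the 10 genes. Of the 10 genes SDF2L1 and DNAJB9 had the fewest counts, from 325 and from 539 counts in a library, and the largest standard errors.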
